A study of Mus musculus with 8 samples.

Results

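The genes described here are 9 of the 20170 genes counted in mouse splenic T cells. They are Dapl1, Pde2a, Ly6c1, Tent5a, Klrd1, Setbp1, and the noncoding RNA genes Gm42047, Gm30948, and Gm16083. They were chosen by symbol because their summed counts differed between SDHA-KO and WT libraries of unstimulated cells. The unstimulated levels are therefore a description and carry no test, and tests are given for the stimulated libraries, which the choice did not use.

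Single-cell RNA sequencing was performed on T cells isolated magnetically from spleens of WT mice and of SDHA-KO mice, which carry Sdha fl/fl alleles and the CD4-Cre transgene. The 4 groups, WT and SDHA-KO cells with and without stimulation, had 2 libraries each. Stimulated cells were cultured for 48 h with 5 µg/mL anti-CD3 and 2.5 µg/mL anti-CD28 antibodies. The antibodies engage the T cell receptor complex and its costimulatory receptor. Unstimulated cells received neither antibody, and the study does not make clear whether they were cultured for as long. CD4-Cre is driven by regulatory elements of Cd4, which are active in thymocytes before the CD4 and CD8 lineages part, so that both classes can lose Sdha. The mice were young adults. The study describes the WT cells of this experiment as coming from B6 mice, and in transplant experiments it also uses Sdha fl/fl mice without Cre as WT donors. Whether the 2 replicates of a group came from separate mice is not given in the sources used here, so p-values measure only the spread between these libraries, which may be technical.

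The libraries held from 1395 to 1801 cells and from 10947009 to 51398728 unique molecular identifiers (UMIs, each marking 1 captured RNA molecule), and 23 cell barcodes occurred in 2 libraries. Levels are counts-per-million (CPM) values of the summed UMIs of a library, scaled for composition, and, since they are not divided by gene length, they are compared between samples and not between genes. Sdha, the targeted gene, lay at 98.0 and 99.1 CPM in unstimulated WT, 46.6 and 46.1 in unstimulated SDHA-KO, 74.7 and 73.9 in stimulated WT, and, after stimulation, 37.6 and 34.1 in SDHA-KO libraries. Where these tags lie relative to the deleted part of Sdha is not given. The deposited classes were not equal in content. Cells with a UMI of Trdc, the constant part of the delta chain of gamma-delta T cell receptors, made up 3.90% and 3.41% of CD8 class cells in unstimulated WT, 19.7% and 15.2% in unstimulated SDHA-KO, 3.67% and 4.92% in stimulated WT, and as much as 59.1% and 56.1% in SDHA-KO libraries after stimulation. The summed level of 7 gamma-delta genes in CD8 cells moved with these shares, at 34.3 and 31.7 CPM, 255 and 191, 15.4 and 18.4, and 227 and 236 in the same order, and in unstimulated WT 2 of the 7, Sox13 and Blk, were at 0. In CD4 class sums Trdc itself lay at 10.1 and 5.99 CPM in unstimulated WT, 26.0 and 27.5 in unstimulated SDHA-KO, 2.59 and 3.15 in stimulated WT, and 10.6 and 8.55 in stimulated SDHA-KO libraries. Stimulated cells under 10% mitochondrial UMIs numbered 541 of 1703 and 640 of 1801 in WT but 1320 of 1648 and 1410 of 1680 in SDHA-KO libraries. In every sum below, fewer cells of a type and less RNA per cell cannot be told apart.

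Resting T cells keep a program of survival, recirculation, and low biosynthesis, and receptor stimulation replaces it with growth and division. SDHA is the flavoprotein subunit of mitochondrial complex II, which oxidizes succinate in the tricarboxylic acid cycle and passes the electrons to the respiratory chain. The 6 coding genes play different parts in T cells. Ly6c1 encodes a Ly6C antigen anchored in the outer membrane. Klrd1 encodes CD94, which pairs with NKG2 chains to form receptors for a nonclassical MHC molecule on natural killer (NK) cells and many CD8 T cells. Pde2a encodes a phosphodiesterase that is activated by cGMP and degrades cAMP and cGMP, Tent5a encodes a noncanonical poly(A) polymerase, and Setbp1 encodes a DNA-binding protein that binds SET, an inhibitor of the phosphatase PP2A. Dapl1 encodes a small protein related to death-associated protein 1.

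Ly6c1 has a near copy, Ly6c2, at chr15:75108158-75111970 on the same strand, and an annotated transcript of each was identical to the other's at 95.0% of aligned positions. Reads could therefore be split between them, and the counts of both are uncertain to that extent. Their levels nevertheless fell in different classes of T cells. In unstimulated WT libraries Ly6c1 lay at 81.0 and 99.2 CPM in CD4 cells and only 1.14 and 0.669 in CD8 cells, whereas Ly6c2 lay at 3.53 and 4.79 CPM in CD4 cells but 276 and 304 in CD8 cells. The stretches just before the 2 gene starts are shown because the copies differ there more than in the transcripts. In a RefSeq table on build GRCm38.p6, Ly6c1 read 5′ to 3′ on its strand at chr15:75048839-75049056 and Ly6c2 at chr15:75111998-75112221, with capitals at bases that differ between the copies or have no partner.
Ly6c1: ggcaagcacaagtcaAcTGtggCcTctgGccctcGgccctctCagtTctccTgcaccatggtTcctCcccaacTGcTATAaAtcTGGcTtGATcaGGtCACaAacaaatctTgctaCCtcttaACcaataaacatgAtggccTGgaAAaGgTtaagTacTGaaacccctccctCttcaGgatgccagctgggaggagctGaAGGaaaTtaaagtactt
Ly6c2: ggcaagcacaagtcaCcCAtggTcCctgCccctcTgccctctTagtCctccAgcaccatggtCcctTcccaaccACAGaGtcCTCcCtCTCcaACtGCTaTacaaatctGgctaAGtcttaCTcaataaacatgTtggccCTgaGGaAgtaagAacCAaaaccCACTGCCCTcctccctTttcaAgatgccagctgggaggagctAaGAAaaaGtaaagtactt
These stretches were identical at 72.2% of aligned positions, with 164 identical bases, 51 mismatches, and 12 gaps.

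The RefSeq table held a start-site window for 5 of the 9 genes, Dapl1, Pde2a, Ly6c1, Tent5a, and Gm30948. Short motifs named for 4 families of T cell transcription factors were searched on both strands of these windows and of all 32851 windows in the table. The Dapl1 window is shown because it held the FOXO motif GTAAACA, marked in capitals, which was in 3.17% of all windows. It lies on the plus strand of GRCm38.p6 at chr2:59484403-59484652.
Dapl1: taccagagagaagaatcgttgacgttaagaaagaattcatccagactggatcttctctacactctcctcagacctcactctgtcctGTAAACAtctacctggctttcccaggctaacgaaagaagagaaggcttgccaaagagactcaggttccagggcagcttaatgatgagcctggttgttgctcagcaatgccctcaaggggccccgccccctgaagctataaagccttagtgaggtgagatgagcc
The ETS motif CAGGAAG, in 10.8% of all windows, was in 1 of 5 Pde2a windows, and the RUNX motif TGTGGT, in 14.0%, was in 2 of 5 Pde2a windows, in 0 of 2 Ly6c1 windows, and in 2 of 2 Ly6c2 windows. The TCF1/LEF1 motif TTCAAAG, in 4.46% of all windows, was in none of the windows of the 5 genes or of Ly6c2.

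On mouse build GRCm38, Dapl1 lies at chr2:59484653-59505020 on the plus strand, Pde2a at chr7:101421691-101512827 on the plus strand, Ly6c1 at chr15:75044018-75048830 on the minus strand, Tent5a at chr9:85320439-85327348 on the minus strand, and Klrd1 at chr6:129591782-129598775 on the plus strand. Setbp1 lies at chr18:78750380-79109391 on the minus strand. Gm42047, at chr8:121833247-121841178, and Gm30948, at chr12:115262684-115287908, are annotated as long intergenic noncoding RNAs on the plus strand. Gm16083, at chr1:130462576-130557075 on the plus strand, is annotated as an antisense RNA, and its first bases overlap the start of Cd55, which runs on the minus strand at chr1:130439027-130462744. Whether counting used strand is not given, so that reads of Gm16083 and Cd55 from the shared bases cannot be told apart. Pde2a and Gm42047 each overlap annotated genes of the same strand that are not in the count table.

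In unstimulated cells 7 of the 9 genes were lower in both SDHA-KO libraries than in both WT libraries, and Setbp1 and Gm42047 were higher. Over all T cells the groups failed to overlap in 46.3% of 15262 tested genes, and edgeR called 1.75% of them. The choice of the genes fixes these directions, so nothing is read from the count. In CD4 cells 7 genes were lower and 1 was higher, with Setbp1 overlapping, against 19.4% and 26.3% of 14264 genes that did not overlap (1.10% called). In CD8 cells 6 were lower and 2 higher, with Ly6c1 overlapping, against 22.0% and 20.8% of 13095 genes (0.947% called). The median of the members' log2 differences was -1.31 in CD4 and -0.81 in CD8 cells, beside 0.03 and 0.00 over all tested genes.

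**Figure D1:**
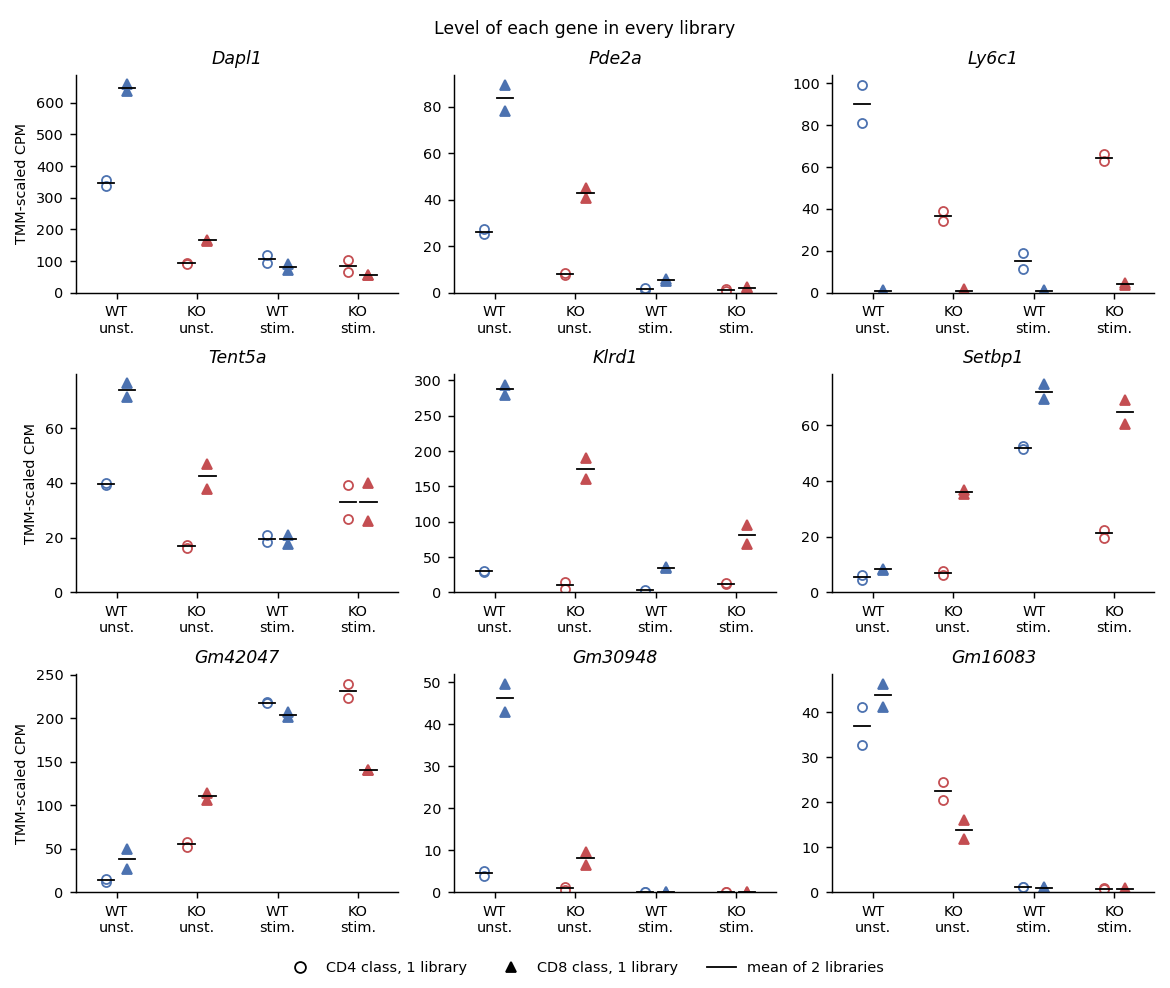
Level of each of the 9 genes in each of the 8 libraries, in CPM on a linear axis, for CD4 class cells and CD8 class cells, with a point per library and groups along the x axis. Dapl1 in CD8 cells drops from 659 and 637 in unstimulated WT to 168 and 163 in unstimulated SDHA-KO libraries, and Gm42047 in CD4 cells climbs from 11.9 and 15.3 to 58.0 and 52.1.

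The surface molecules differed by class. Ly6c1 in CD4 cells lay at 81.0 and 99.2 CPM in unstimulated WT and at 38.8 and 34.2 in unstimulated SDHA-KO libraries, a log2 difference of -1.31. It was nearly absent from CD8 cells of both genotypes. Within the deposited CD4 subsets, naive cells went from 89.4 and 109.8 CPM to 41.6 and 36.8, and regulatory T cells (Treg) from 85.7 and 92.7 to 48.0 and 40.3, whereas effector memory cells (Tem) held only 5.05 and 11.1 in WT and 0 and 1.15 in SDHA-KO. Both naive and Treg cells thus showed the lower level, and neither pair of groups overlapped. A Ly6c1 UMI was found in 31.7% and 35.3% of WT CD4 naive cells, at a median of 7297 UMIs per cell, and in 18.0% and 16.8% of SDHA-KO ones. The background share, in CD8 naive cells of WT at a median of 8894.5 UMIs, was 0.246% and 0.596%. Among cells with a UMI, the number of Ly6c1 UMIs per cell was 1.89 and 2.17 in WT and 1.86 and 1.74 in SDHA-KO CD4 naive cells.

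Klrd1 lay at 294 and 279 CPM in CD8 cells of unstimulated WT and at 189.8 and 161 in unstimulated SDHA-KO libraries. In CD4 cells it lay at 29.5 and 29.8 CPM in WT and 14.4 and 5.47 in SDHA-KO, lower in both but with the SDHA-KO libraries far apart. In CD4 Tem cells Klrd1 went the other way, from 10.1 and 12.7 CPM in WT to 103 and 24.2 in SDHA-KO. Trdc was also higher in these cells, going from a mean of 1.55 to 184 CPM, here not scaled for composition. Among all SDHA-KO CD4 class cells, Klrd1 lay at 84.8 and 15.6 in those with a Trdc UMI and at 7.95 and 4.54 in those without, where WT cells without one lay at 29.8 and 30.0. CD4 naive cells went from 34.5 and 34.4 to 7.38 and 4.11. In CD8 naive cells the gene lay at 266 and 267 in WT and 146 and 126 in SDHA-KO, and in CD8 central memory cells (Tcm) at 440.4 and 366 against 323 and 356. A UMI of Klrd1 was present in 77.7% and 79.4% of WT CD8 cells and 63.4% and 55.8% of SDHA-KO CD8 cells, beside 2.17% and 0% of WT Treg cells, whose median was 6767 UMIs.

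Dapl1 was lower in unstimulated SDHA-KO cells by 3.76-fold in CD4 and by 3.91-fold in CD8 cells. It lay at 356 and 338 CPM in WT CD4 cells and 92.6 and 92.4 in SDHA-KO CD4 cells. In CD8 cells it lay at 659 and 637 in WT and 168 and 163 in SDHA-KO. The replicates of each group lay close together in both classes, far from those of the other genotype. The lower level was seen in naive and CD4 Tem cells but not in CD8 Tcm cells. CD4 naive cells went from 425 and 400.2 CPM to 107 and 109, CD8 naive cells from 753 and 707 to 180.0 and 162, and CD4 Tem cells from 60.6 and 45.9 to 13.9 and 0, whereas CD8 Tcm cells lay at 164 and 126 in WT and 133 and 169 in SDHA-KO, which overlapped. A Dapl1 UMI was present in 65.4% and 63.4% of WT CD8 cells and in 27.7% and 26.2% of SDHA-KO CD8 cells. With each cell thinned to 5000 UMIs, which leaves out 20 WT and 15 SDHA-KO CD8 cells, the shares were 62.9% and 59.7% against 21.9% and 25.1%. Cells with a UMI held on average 7.65 and 8.09 Dapl1 UMIs in WT and 6.24 and 5.94 in SDHA-KO.

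Pde2a was higher in CD8 than in CD4 cells of every unstimulated library. It lay at 25.2 and 27.4 CPM in WT CD4 cells and 7.82 and 8.68 in SDHA-KO ones, and at 78.3 and 89.5 in WT CD8 cells and 45.3 and 40.6 in SDHA-KO ones. Its subset pattern was that of Dapl1 in naive cells, which went from 25.2 and 27.0 to 6.49 and 7.55 in CD4 and from 55.3 and 73.3 to 12.3 and 15.4 in CD8, but its level was highest in CD8 Tcm cells, at 200.4 and 207 in WT and 146 and 181 in SDHA-KO. Tent5a lay at 39.1 and 40.0 CPM in WT CD4 cells against 17.5 and 16.2 in SDHA-KO, and at 71.4 and 76.7 in WT CD8 cells against 37.8 and 47.1. Naive cells held the lower Tent5a level, from 45.2 and 44.6 to 16.5 and 15.1 in CD4 and from 69.9 and 79.2 to 31.1 and 40.2 in CD8. In CD8 Tcm cells the Tent5a groups overlapped, at 79.4 and 59.1 in WT and 58.3 and 85.6 in SDHA-KO, and so they did in CD4 Tem cells, at 16.8 and 23.7 against 23.6 and 30.0. In Treg cells Tent5a was higher in SDHA-KO without overlap, at 22.4 and 13.9 against 10.1 and 8.24, on 14 and 10 UMIs against 6 and 4.

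Setbp1 was one of the members that were higher in SDHA-KO. It lay at 8.57 and 8.03 CPM in WT CD8 cells and 36.9 and 35.5 in SDHA-KO CD8 cells, and at 4.49 and 6.29 against 7.82 and 6.13 in CD4 cells, where the groups overlapped. CD8 naive cells went from 6.79 and 5.84 to 19.5 and 28.6, and CD8 Tcm cells from 18.1 and 24.0 to 89.8 and 73.9. In CD4 naive cells it was higher without overlap as well, at 3.94 and 3.55 against 1.39 and 1.26 CPM (31 and 32 UMIs against 7 and 7), whereas CD4 Tem cells, at 29.1 and 18.5 against 23.6 and 25.3, and Treg cells, at 32.0 and 23.6 against 11.8 and 39.1, overlapped. Mean Trdc in CD8 Tcm cells, again not scaled for composition, went from 77.0 to 638 CPM. Among unstimulated SDHA-KO CD8 cells, Setbp1 lay at 81.3 and 59.7 CPM in those with a Trdc UMI and at 24.3 and 31.0 in those without, and the latter were still above all WT CD8 sums.

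The noncoding genes were split in direction. Gm42047 in CD4 cells lay at 11.9 and 15.3 CPM in WT and 58.0 and 52.1 in SDHA-KO, and in CD8 cells at 26.6 and 49.7 against 106 and 114. Naive cells went from 9.51 and 14.6 to 59.5 and 55.0 in CD4 and from 25.4 and 49.2 to 129 and 131 in CD8. It was also higher without overlap in CD4 Tem cells, at 43.0 and 34.6 against 13.5 and 17.4, and in Treg cells, at 56.0 and 36.1 against 30.3 and 20.6, while CD8 Tcm cells overlapped at 32.5 and 53.6 in WT against 35.2 and 21.4 in SDHA-KO. With cells thinned to 5000 UMIs, 5.16% and 6.07% of WT CD4 cells and 19.9% and 18.3% of SDHA-KO CD4 cells had a Gm42047 UMI. Gm30948 was highest in CD8 naive cells, at 50.2 and 55.1 CPM in WT and 10.8 and 5.94 in SDHA-KO CD8 naive cells, beside 3.61 and 9.24 in WT CD8 Tcm cells and 6.72 and 16.5 in WT Treg cells, the latter on 4 and 8 UMIs. Gm16083 lay at 32.7 and 41.1 CPM in WT CD4 cells and 20.5 and 24.5 in SDHA-KO, and averaged 43.7 ± 3.57 (SD, n = 2) in WT CD8 cells and 13.8 ± 3.04 in SDHA-KO ones, lower in both classes without overlap.

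**Figure D2:**
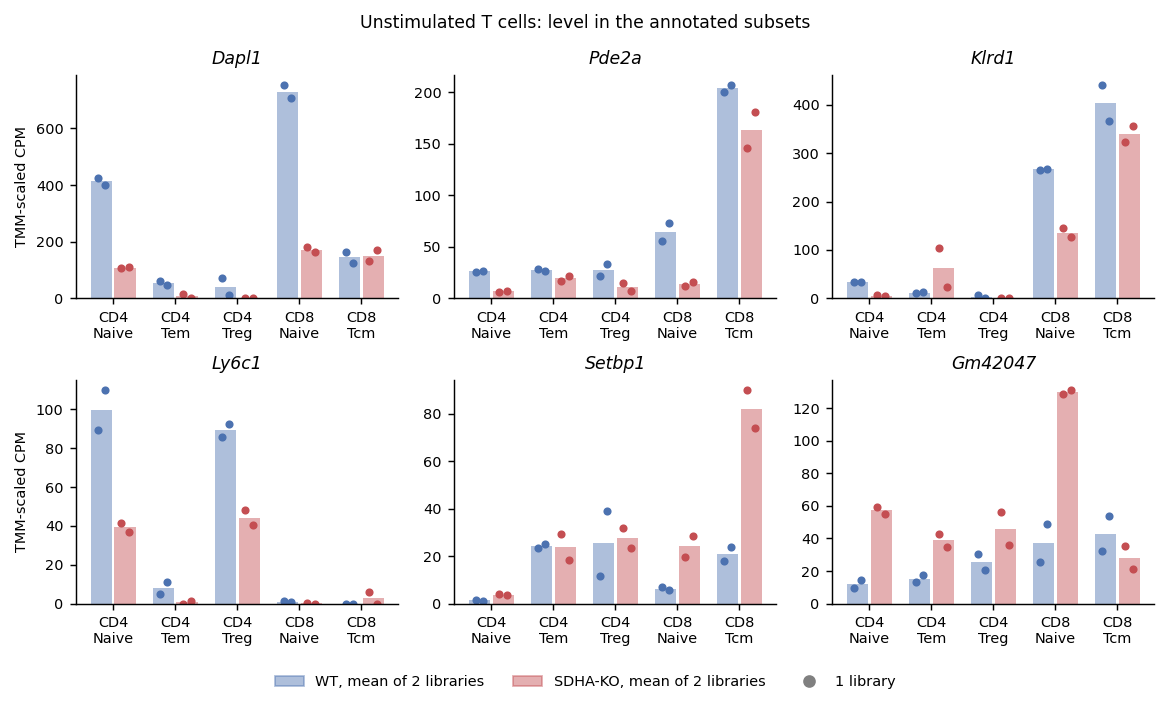
Levels of Dapl1, Pde2a, Klrd1, Ly6c1, Setbp1, and Gm42047 in deposited subsets of unstimulated cells, in CPM, with a point per library and the WT and SDHA-KO groups side by side. Dapl1 in CD8 naive cells lies at 753 and 707 in WT and 180.0 and 162 in SDHA-KO, whereas in CD8 Tcm cells the groups overlap.

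The makeup of the libraries also differed, and the naive and memory shares enter each sum. The class shares enter the sums over all T cells. CD8 class cells numbered 462 of 1395 and 557 of 1508 in unstimulated WT and 325 of 1441 and 355 of 1670 in unstimulated SDHA-KO libraries. After stimulation they numbered 844 of 1703 and 834 of 1801 against 511 of 1648 and 396 of 1680. When the SDHA-KO subset levels were weighted by the subset makeup of WT libraries, all 9 genes kept the direction of their observed mean CPM values, in either class as well as over all T cells. Over all T cells Gm30948 moved from a log2 difference of -2.94 to -2.32 and Klrd1 from -1.31 to -0.84. In CD8 cells Ly6c1, at a few UMIs per library and with overlapping groups, moved from -0.01 to -0.75. Among the 8 unstimulated CD4 and CD8 sums, which share libraries, depth, and class, Pearson's r of log2 levels was 0.97 between Pde2a and Tent5a, 0.96 between Pde2a and Gm30948, 0.81 between Setbp1 and Gm42047, and -0.85 between Ly6c1 and Klrd1. The genotype difference in these same libraries chose the members, so r between members is in part fixed by the choice. Likeness to other genes, picked as the highest r, is likewise only a description. Among 8973 genes that averaged 5 CPM or more, the closest to Dapl1 over these 8 sums was the mitochondrial gene mt-Nd2 (r = 0.987), to Pde2a the adenylyl cyclase gene Adcy7 (0.996), to Ly6c1 Smco4 (0.994), to Tent5a the phosphatase gene Acp5 (0.980), to Klrd1 Lpxn (0.996), to Setbp1 Phf11c (0.996), to Gm42047 Ubn2 (0.970), to Gm30948 Bola2 (0.989), and to Gm16083 Gm14085 (0.992). Over all 16 sums, stimulated ones included, r stayed at 0.966 for Pde2a and Adcy7, 0.936 for Ly6c1 and Smco4, 0.927 for Gm30948 and Bola2, and 0.995 for Gm16083 and Gm14085, but was 0.135 for Dapl1 and mt-Nd2 and -0.744 for Setbp1 and Phf11c.

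After stimulation each gene lay clear of its unstimulated level in at least 1 class of WT cells. Over WT CD4 sums 7 genes were below and 2 above their unstimulated levels, against 39.0% and 45.7% of all tested genes, and over WT CD8 sums 6 were below and 2 above with Ly6c1 overlapping, against 38.8% and 45.7%. The 2 that climbed were Setbp1 and Gm42047 in each class. These comparisons share the WT unstimulated libraries with the choice of the genes and are given without a test. In SDHA-KO cells, 3 genes were below, 4 above, and 2 overlapping in CD4 sums, against 40.8% and 43.9% of all genes, and 5 were below, 3 above, and 1 overlapping in CD8 sums, against 38.7% and 45.7%. In CD4 cells Ly6c1 went from 81.0 and 99.2 to 11.3 and 18.8 CPM in WT but from 38.8 and 34.2 to 66.3 and 62.8 in SDHA-KO, and Tent5a went from 39.1 and 40.0 to 18.4 and 20.9 in WT but from 17.5 and 16.2 to 39.4 and 26.8 in SDHA-KO.

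The noncoding RNAs Gm30948 and Gm16083 were near 0 in stimulated cells of both genotypes. Gm30948 had 3 and 4 UMIs in stimulated WT CD8 cells and 0 in stimulated WT CD4, SDHA-KO CD4, and SDHA-KO CD8 cells, and 0 of 907 SDHA-KO CD8 cells allows a share of cells with a UMI of up to 0.331%, which is no limit on cells that express the gene. Gm16083 fell to between 0.495 and 1.24 CPM in every stimulated class sum. Gm42047 took the opposite course and reached 219 and 217 CPM in CD4 and 201 and 207 in CD8 cells of WT. Setbp1 likewise reached 52.5 and 51.4 in WT CD4 and 74.9 and 69.4 in WT CD8 cells.

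**Figure D3:**
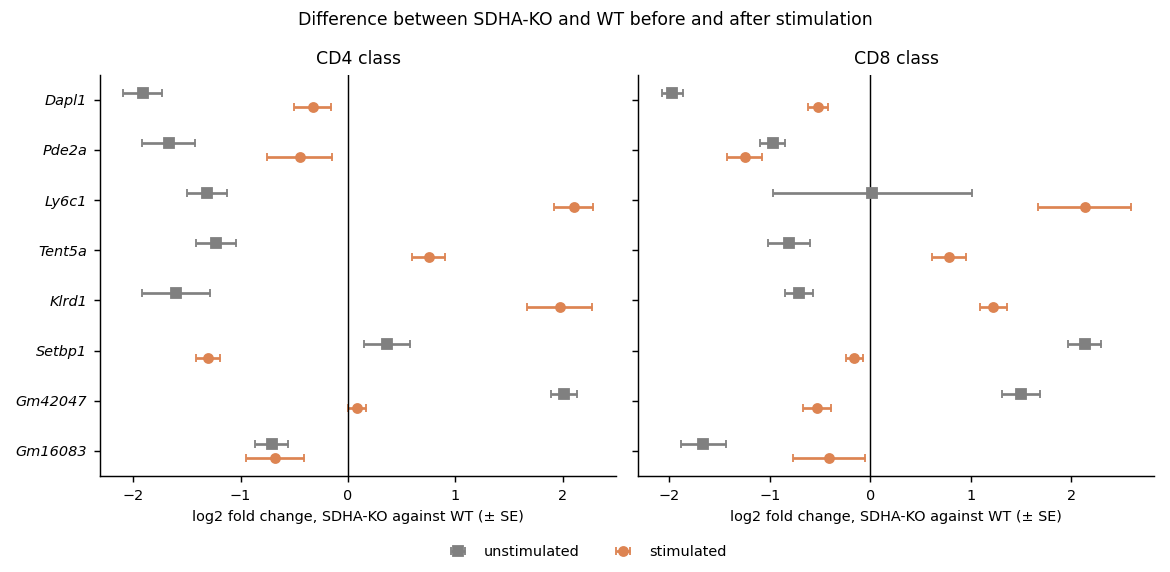
Log2 difference of SDHA-KO from WT for each gene except Gm30948, unstimulated and stimulated, in CD4 and CD8 class cells, with a point per difference and bars of 1 standard error. Ly6c1 in CD4 cells lies at -1.31 unstimulated and 2.10 stimulated, and Klrd1 at -1.60 and 1.97.

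In stimulated cells edgeR's quasi-likelihood test with Benjamini-Hochberg adjustment called 4 of the 9 genes in CD4 cells and 7 in CD8 cells, but it also called 43.2% and 50.4% of all tested genes, so the counts lie close to the background in CD4 cells. The members' median log2 difference was 0.00 in CD4 and -0.41 in CD8 cells, beside 0.00 and -0.01 over all genes. Over all T cells 6 of 9 were called against 47.2%. Ly6c1, Tent5a, and Klrd1 were higher in SDHA-KO in both classes, against 22.7% of genes called higher in CD4 and 26.8% in CD8 cells. The genes called lower were Setbp1 in CD4 cells, against 20.5%, and Dapl1, Pde2a, Gm42047, and Gm30948 in CD8 cells, against 23.5%. Over all T cells they were Pde2a, Setbp1, and Gm30948, against 21.0%, and the Pde2a call there, at -1.06, was lost with libraries thinned to the smallest (-0.60, adjusted p = 0.180, edgeR).

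Ly6c1 rose in stimulated SDHA-KO CD4 cells, to 66.3 and 62.8 CPM from 11.3 and 18.8 in WT, a log2 difference of 2.10 ± 0.178 (SE, adjusted p = 7.94e-06, edgeR). Thinned to 5000 UMIs per cell, 21.0% and 20.2% of SDHA-KO CD4 cells and 5.71% and 8.98% of WT ones had a Ly6c1 UMI. The direction was the same in each of 8 CD4 clusters tested, from 0.88 to 2.73, and 5 of them passed, where edgeR called from 8.47% of all genes (Tem7) to 28.3% (Tem5). In CD8 cells Ly6c1 lay at 3.62 and 4.83 CPM against 0.810 and 1.09 (2.13 ± 0.461, adjusted p = 0.00264, edgeR), a low level at which Ly6c2 lay at 74.9 and 98.1 against 53.1 and 51.2. With all libraries thinned to the smallest the CD8 call was lost, at a log2 difference of 0.40. Only 1 of 4 CD8 clusters, Tem2, had enough Ly6c1 UMIs to be tested, at a log2 difference of 5.15. All CD8 Tem cells held 7 and 7 Ly6c1 UMIs in WT against 60 and 72 in SDHA-KO. That cluster was thus tested mainly through the SDHA-KO libraries, and its direction is not read. In CD8 class cells with a Cd8a or Cd8b1 UMI and no Cd4 or Trdc UMI, Ly6c1 lay at 0.298 and 1.47 CPM in SDHA-KO (2 and 8 UMIs) and 0.412 and 0.545 in WT, which overlapped, whereas CD8 class cells without a Trdc UMI lay at 3.60 and 5.85 against 0.849 and 1.12.

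Klrd1 rose in both classes. In CD8 cells it lay at 68.6 and 95.3 CPM in SDHA-KO and 34.2 and 36.0 in WT, a log2 difference of 1.22 ± 0.134 (adjusted p = 2.81e-05, edgeR). In CD4 cells it lay at 11.8 and 13.4 against 2.52 and 3.86, a log2 difference of 1.97 ± 0.304 (adjusted p = 0.000414, edgeR). All 4 CD8 clusters, in which from 5.63% (Tcm4) to 32.6% (Tem2) of all genes were called, were positive, from 0.63 to 1.61, with 3 passing, and all 7 CD4 clusters tested were positive, from 0.27 to 3.03, with 3 passing. The call held without Trdc-positive cells. Restricted to CD8 class cells with a Cd8a or Cd8b1 UMI and no Cd4 or Trdc UMI, which left 169 and 147 SDHA-KO and 736 and 709 WT cells, Klrd1 still rose, at 71.4 and 99.4 against 32.5 and 36.9 CPM (log2 difference 1.26, adjusted p = 4.06e-06, edgeR). Restricted likewise to CD4 class cells with a Cd4 UMI and no Cd8a, Cd8b1, or Trdc UMI, the difference was 0.95 (adjusted p = 0.0372, edgeR). That rule kept 487 of 859 and 542 of 967 stimulated WT cells and 637 of 1137 and 762 of 1284 SDHA-KO cells. It selects on Cd4, which was itself higher in SDHA-KO CD4 sums. Cd4 lay at 145 and 139.8 CPM against 90.7 and 95.5 in WT after stimulation, and at 598 and 666 against 168 and 169 without it. The summed level of 6 NK cell genes also moved in CD4 cells, from 5.19 and 3.54 CPM in stimulated WT to 14.3 and 12.0 in stimulated SDHA-KO, with 3 and 1 of the 6 at 0 over the group, and its part in the CD4 result was not tested.

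Tent5a rose by less and with more spread, to 39.4 and 26.8 CPM in SDHA-KO CD4 cells from 18.4 and 20.9 in WT (0.75 ± 0.152, adjusted p = 0.00235, edgeR). In CD8 cells it lay at 40.1 and 26.1 against 17.8 and 21.0 (0.78 ± 0.171, adjusted p = 0.00293, edgeR). Without SDHA-KO stimulated replicate 1 the log2 difference was 0.46 in CD4 and 0.41 in CD8 cells, still past the threshold. In CD8 cells with the stricter marker rule it lay at 25.3 and 13.0 in SDHA-KO and 17.1 and 20.7 in WT, which overlapped, and the call was lost (0.02, adjusted p = 0.955, edgeR). Of 8 CD4 clusters 2 passed as higher and 1, Tem5, as lower, at a log2 difference of -0.77 (adjusted p = 0.0296, edgeR).

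Dapl1, lower in unstimulated SDHA-KO cells of both classes, gave a result after stimulation that turned with the choice of CD8 cells. In the deposited CD8 class it lay at 56.3 and 56.6 CPM in SDHA-KO and 71.3 and 90.6 in WT, a log2 difference of -0.52 ± 0.101 (adjusted p = 0.00128, edgeR). In CD8 cells with the stricter marker rule the direction turned, at 123 and 110.2 CPM in SDHA-KO against 76.8 and 93.0 in WT (0.43, adjusted p = 0.00495, edgeR). In the stimulated SDHA-KO CD8 class, cells with a Trdc UMI held 21.9 and 31.5 CPM of Dapl1 and cells without held 113 and 93.9. The detection share was lower in the SDHA-KO CD8 class, at 11.0% and 7.95% against 24.1% and 25.7% in cells thinned to 5000 UMIs, while the unthinned number of UMIs per positive cell was higher, at 11.6 and 9.42 against 4.66 and 5.89 with cells of about 30348 and 13228 UMIs. In CD4 cells Dapl1 did not pass (66.1 and 104 against 94.2 and 119.6 CPM, adjusted p = 0.144, edgeR), but it did without SDHA-KO stimulated replicate 2, at -0.68 (adjusted p = 0.00154, edgeR), in cells under 10% mitochondrial UMIs, at -0.72 (adjusted p = 0.00605, edgeR), and under the stricter CD4 rule, at -0.62 (adjusted p = 0.0161, edgeR). Within clusters, 2 of 8 CD4 clusters and 2 of 4 CD8 clusters passed as lower, and none as higher.

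Pde2a, at a low level after stimulation, was lower in SDHA-KO CD8 cells, at 2.02 and 2.48 CPM against 4.86 and 5.72 in WT (-1.25 ± 0.174, adjusted p = 0.000141, edgeR), and passed in 1 of 3 CD8 clusters tested. It passed under the stricter CD8 rule as well, at -1.75 (adjusted p = 0.000537, edgeR), but not with libraries thinned to the smallest, at -1.09. In CD4 cells the groups overlapped, at 1.72 and 0.920 against 1.35 and 2.17 CPM, and the difference passed only without SDHA-KO stimulated replicate 1, at -0.93 (adjusted p = 0.0344, edgeR).

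Setbp1 and Gm42047, both higher in unstimulated SDHA-KO, parted by class after stimulation. Setbp1 lay at 22.6 and 19.7 CPM in SDHA-KO CD4 cells against 52.5 and 51.4 in WT, a log2 difference of -1.30 ± 0.113 (adjusted p = 9.36e-06, edgeR), and was negative in 8 of 8 CD4 clusters, from -1.96 to -0.65, with 6 passing. In CD8 cells it lay at 60.4 and 69.3 against 74.9 and 69.4 CPM (-0.16 ± 0.0845, adjusted p = 0.150, edgeR), no CD8 cluster passed, and without SDHA-KO stimulated replicate 2 the difference was -0.27 (adjusted p = 0.0398, edgeR). The detection share behaved as the sums did in CD4 cells, at 8.84% and 8.51% of SDHA-KO and 23.8% and 24.0% of WT cells thinned to 5000 UMIs.

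Gm42047 in CD4 cells did not pass over the class, at 239.5 and 223 CPM in SDHA-KO against 219 and 217 in WT (0.08 ± 0.0829, adjusted p = 0.445, edgeR). Within CD4 clusters, however, 7 of 8 were positive and 5 passed, with a highest log2 difference of 0.72. Its level depended on the subset, at 465 and 438 CPM in WT Tcm cells and 129 and 142 in WT Tem cells, and at 584 and 606 in SDHA-KO Tcm and 213 and 199 in SDHA-KO Tem cells. SDHA-KO libraries held 901 and 1061 CD4 Tem cells against 319 and 373 in WT, and 236 and 223 CD4 Tcm cells against 540 and 594. With SDHA-KO subset levels weighted by the WT makeup, a calculation chosen after seeing the data, the CD4 log2 difference was 0.52, and it was 0.32 (adjusted p = 0.0180, edgeR) in cells under 10% mitochondrial UMIs. In CD8 cells Gm42047 was lower, at 141 and 140.4 CPM against 201 and 207 (-0.53 ± 0.135, adjusted p = 0.00665, edgeR), and all 4 CD8 clusters were negative with 2 passing. Under the stricter CD8 rule the call was lost, at 213 and 199 against 204 and 205 CPM (-0.02, adjusted p = 0.902, edgeR). Among stimulated SDHA-KO CD8 class cells, those with a Trdc UMI held 101 and 102 CPM and those without held 207 and 197.

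**Figure D4:**
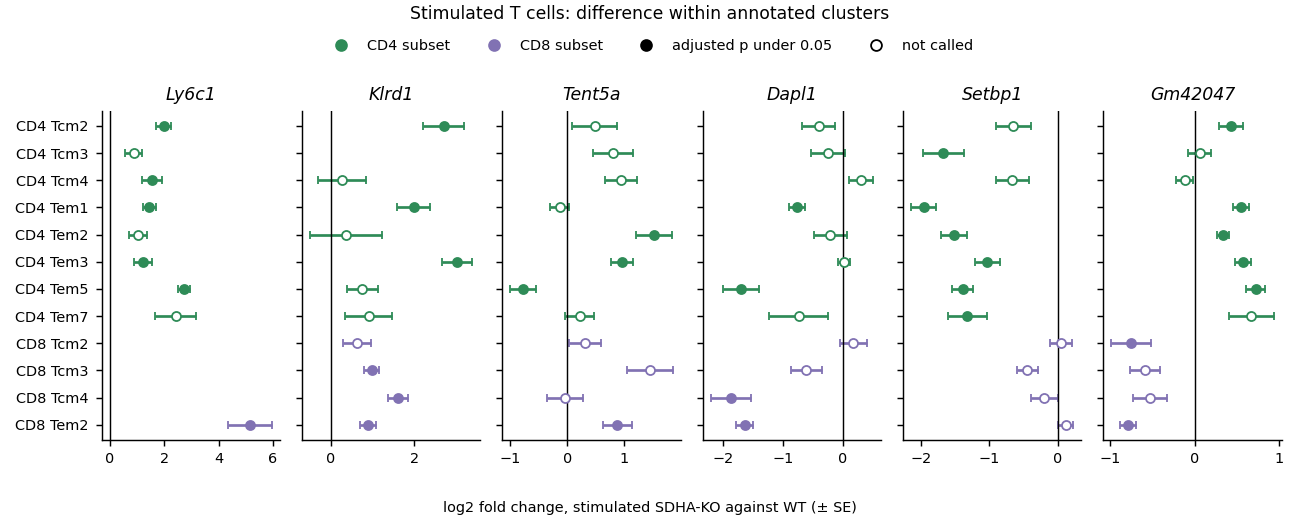
Log2 difference of SDHA-KO from WT in stimulated cells for Ly6c1, Klrd1, Tent5a, Dapl1, Setbp1, and Gm42047, by deposited cluster. The 12 clusters with at least 20 cells in each of the 4 stimulated libraries are shown, with filled points for an adjusted p under 0.05. Setbp1 lies below 0 in all 8 CD4 clusters, and Ly6c1 and Klrd1 lie above 0 in every CD4 cluster tested. Klrd1 also lies above 0 in all 4 CD8 clusters, of which only 1 could be tested for Ly6c1.

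Over the 12 clusters 34 of 71 pairs of member and cluster passed, 47.9%, against 20.5% of all pairs of gene and cluster. Leaving out each library in turn gave 28 to 39 pairs. Gm30948 and Gm16083 could not be tested in any cluster, nor Pde2a in CD4 clusters, because too few UMIs were left after stimulation. Gm16083 did not pass in either class, with adjusted p = 0.0618 in CD4 and 0.358 in CD8 cells (edgeR), and Gm30948 passed in CD8 cells on 3 and 4 UMIs in WT against 0 and 0 (adjusted p = 0.0194, edgeR), too few for a fold to be read from them.

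CD4 and CD8 cells of the same stimulated libraries were compared with the library as a block. In WT, 4 of 8 genes tested differed, beside 23.5% of all genes. Klrd1 was 11.4-fold higher in CD8 cells (log2 3.51 ± 0.135, adjusted p = 4.48e-06, edgeR), Pde2a was higher (1.66 ± 0.290, adjusted p = 0.00524), and so was Setbp1 (0.53 ± 0.0839, adjusted p = 0.00343). Ly6c1 was lower in CD8 cells (-3.92 ± 0.163, adjusted p = 6.28e-06), and Ly6c2, its near copy, was higher (3.37 ± 0.123, adjusted p = 3.40e-06). Without WT stimulated replicate 1 Pde2a no longer passed, at 1.45 (adjusted p = 0.0615). Tent5a and Gm42047 lay at nearly equal levels in the classes, with log2 differences of 0.04 ± 0.0664 and -0.04 ± 0.0448.

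Sdha itself was lowered less in the stimulated CD8 class than in the CD4 class. It lay at 26.5 and 26.4 CPM in SDHA-KO CD4 cells against 74.0 and 73.1 in WT. In CD8 cells it lay at 53.3 and 50.4 against 76.2 and 74.9. The part of this in the class differences was not tested. The difference of SDHA-KO from WT, the SDHA-KO effect, differed between the classes for 3 of 8 genes tested, beside 22.4% of all genes. For Setbp1 the effect was higher in CD8 than in CD4 cells by 1.13 ± 0.124 (adjusted p = 0.00125, edgeR), which also passed under the stricter marker rule, at 1.52. For Gm42047 it was lower in CD8 cells by -0.63 ± 0.0642 (adjusted p = 0.000917, edgeR), which the stricter rule reduced to -0.11. For Klrd1 it was lower by -0.78 ± 0.181 (adjusted p = 0.0190, edgeR), which no longer passed without WT stimulated replicate 1, at -0.55, and turned to 0.34 under the stricter rule. Dapl1, with no difference passing in the deposited classes (-0.17, adjusted p = 0.529), passed under the stricter rule at 1.11 (adjusted p = 0.0133, edgeR). For Tent5a the difference of the effects was 0.00 ± 0.0900.

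**Figure D5:**
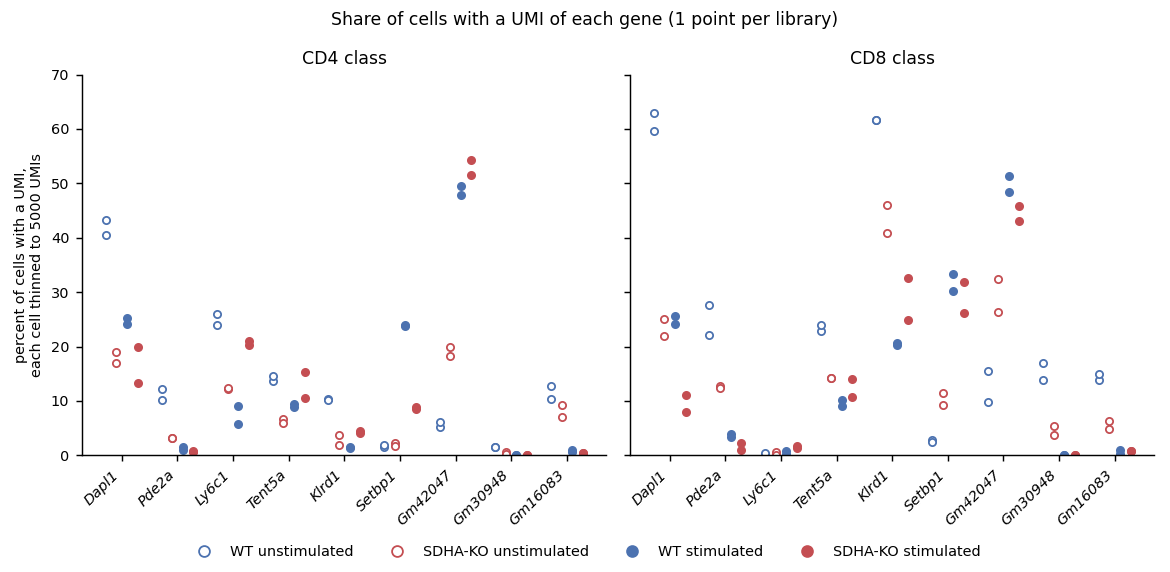
Percent of cells with at least 1 UMI of each gene, every cell thinned to 5000 UMIs, for CD4 and CD8 class cells of the 8 libraries, with a point per library. Ly6c1 in stimulated CD4 cells lies at 21.0 and 20.2% in SDHA-KO and 5.71 and 8.98% in WT, and Dapl1 in unstimulated CD8 cells at 21.9 and 25.1% against 62.9 and 59.7%.

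The genes around the members were followed as 8 lists, chosen with earlier results of these data known. Few of their genes passed at rest. Of all tested genes, edgeR called 1.10% in unstimulated CD4 cells, 0.947% in CD8 cells, and 1.75% over all T cells. The lists are short, so 1 or 2 called genes are not read as a share. For an unadjusted p under 0.05 and for DESeq2 no share of all genes is given here. In unstimulated cells 1 of 20 genes of naive and quiescent T cells passed in each class by edgeR, Igfbp4, encoding a binding protein of insulin-like growth factors, which rose in SDHA-KO from 245 and 231 to 484 and 420.1 CPM in CD4 cells (adjusted p = 0.00735, edgeR) and from 96.8 and 86.6 to 169.7 and 183 in CD8 cells (adjusted p = 0.00328). EdgeR called 0 of the list lower, with 3 in CD4 and 7 in CD8 cells at an unadjusted p under 0.05, whereas DESeq2 called 3 and 4 lower. Of 14 genes linked to CD8 memory and Ly6C, Id2 rose and Itgb1 fell in CD4 cells, by log2 0.87 and -0.78, and in CD8 cells edgeR called 0, with 4 at an unadjusted p under 0.05 and 1 by DESeq2. Of the NK receptor and adaptor genes around Klrd1, 1 of 9 tested fell in CD4 cells, Hcst, the adaptor DAP10, from 474 and 481 to 350.1 and 300.0 CPM (adjusted p = 0.00979, edgeR), and 1 of 14 rose in CD8 cells, Klrc1, a partner chain of CD94, from 7.43 and 4.68 to 27.6 and 13.9 (adjusted p = 0.0359, edgeR).

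The phosphodiesterase list gave 1 of 14 in unstimulated CD4 cells, Pde5a, a cGMP-specific enzyme, which rose from 0.802 and 0.749 to 3.58 and 3.40 CPM (adjusted p = 0.0142, edgeR), and 0 of 13 in CD8 cells, where 1 had an unadjusted p under 0.05 and DESeq2 called 0. No gene of cAMP production and response, of the poly(A) polymerases, of the Ly6 family, or of SETBP1 partners and PP2A passed in unstimulated CD4 or CD8 sums by edgeR, although over all T cells Adcy7 fell by 0.45 on the log2 scale (adjusted p = 0.0217, edgeR) and Ly6c2 fell by 1.02 (adjusted p = 0.0422, edgeR). At an unadjusted p under 0.05 these 4 lists held from 0 to 5 genes per class, and DESeq2 called from 0 to 2. Within the classes Ly6c2 differed by -0.45 in CD8 cells (adjusted p = 0.299, edgeR) and -0.26 in CD4 cells (adjusted p = 0.692, edgeR). The smaller CD8 share of unstimulated SDHA-KO libraries enters the values over all T cells, and its part was not tested.

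After stimulation the lists around the surface molecules were mostly higher in SDHA-KO. Cells with a Trdc UMI made up over 50% of the stimulated SDHA-KO CD8 class and under 5% of the WT one, as given above, and the part of this in the CD8 counts that follow was not tested. The NK receptor list had 6 of 9 higher in CD4 cells and 8 of 14 higher in CD8 cells with 0 lower, and list medians of 1.82 and 1.33, against 22.7% and 26.8% of all genes called higher, and DESeq2 called 4 and 5 higher. The Ly6 family had 5 of 8 and 4 of 5 higher with 0 lower, Ly6a in CD8 cells going from 202 and 193 to 484 and 346 CPM (adjusted p = 0.000188, edgeR). Some called genes of the NK receptor and Ly6 lists were near 0 in WT. In CD4 cells Klrb1c lay at 0 and 0 CPM in WT and 1.04 and 0.189 in SDHA-KO. In CD8 cells Tyrobp lay at 0.203 and 0.156 against 4.32 and 1.49. Ly6m in CD4 cells and Ly6d in CD8 cells were near 0 in WT too. Genes so low in WT could hardly be called lower, so the 0 lower and the medians are not read as shifts of whole lists. The CD8 memory list had 6 and 8 of 14 higher with 0 lower (4 and 8 by DESeq2), among them Xcl1, a chemokine, which went from 11.6 and 7.92 to 33.3 and 45.5 CPM in CD4 cells (adjusted p = 2.57e-05, edgeR). The naive list had 10 higher and 2 lower of 20 in CD4 cells, and 1 higher and 9 lower in the CD8 class, where 20.5% and 23.5% of all genes were called lower. The difference between the classes was not tested for the list. In CD4 cells Klf2, a factor of quiescence and recirculation, went from 13.7 and 13.3 to 45.2 and 32.6 CPM (adjusted p = 1.05e-05, edgeR), and Txnip, which restrains glucose uptake, fell by 0.85 on the log2 scale.

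The enzyme lists are read against 22.7% of all genes called higher and 20.5% lower in CD4 cells, and 26.8% and 23.5% for CD8. Phosphodiesterases had 3 higher and 3 lower of 14 in CD4 cells and 2 higher and 4 lower of 13 in CD8 cells, where Pde3b, an enzyme of cAMP breakdown, went from 163 and 144 to 96.1 and 99.3 CPM (adjusted p = 0.000101, edgeR). Genes of cAMP production and response had 4 higher and 1 lower of 14 in CD4 and 4 higher and 3 lower of 13 in CD8 cells, and Adcy7, whose level ran closest to that of Pde2a at rest, fell in both, by 0.58 and 0.59 on the log2 scale. Of 11 poly(A) polymerases other than Tent5a 3 were lower in CD4 and 4 in CD8 cells and 0 higher, numbers lower that lie near the shares of all genes, and DESeq2 called 0 and 3 lower. Of 12 SETBP1 partners and PP2A genes 4 were higher and 1 lower in CD4 cells, and 7 higher and 2 lower in CD8 cells, with 2 and 4 higher by DESeq2. In CD8 cells Set rose from 655 and 651 to 938 and 933 CPM (adjusted p = 6.81e-05, edgeR).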

How the data were processed

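The authors sequenced 10x Genomics 3′ libraries, made counts with Cell Ranger (bcl2fastq and build mm10 per the submitters' processing notes, versions not given), merged the libraries in Seurat, removed cells with very many detected genes and clusters without CD3 transcripts, and deposited a matrix of unnormalized UMI counts. A cell table, also deposited, lists the library, CD4 or CD8 class, and cluster of each cell, its UMI count, and the percentage of its UMIs on mitochondrially encoded genes, which the authors computed. The deposited UMI totals of all 12846 cells were checked against the matrix and differed in 0.

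UMIs were summed per library and class, because cells are not replicates. Genes were kept with filterByExpr (minimum count 10, minimum total 15), scaled by TMM, and tested with edgeR 4.0.16 (R 4.3.3, glmQLFit and glmQLFTest) over 8 libraries of 4 groups. A Benjamini-Hochberg adjusted p under 0.05 over all tested genes was called. After stimulation the classes were compared within libraries, the library being a block. Clusters were fitted where each stimulated library held at least 20 cells. Exact permutation of 2 against 2 libraries cannot go below p = 0.33, so none is given. The relative spread between replicate libraries was 8.71% over all T cells, and the smallest class sum held 3640136 UMIs. On counts simulated for stimulated SDHA-KO against WT (13095 to 15262 genes), 100% of 2-fold and of 4-fold changes were recovered, with 10 to 15 false calls among 210 to 215. The changed genes there averaged over 20 CPM, and every gene was given the same spread. The recovery therefore does not cover genes at a few CPM or less, such as stimulated Pde2a, Gm16083, Gm30948, and Ly6c1 in CD8 cells. Intervals and floors of 3 UMIs cover counting error only. The named genes are the 9 members, for lists some of the called genes with the largest log2 difference each way, and by likeness those with the highest r. Members and lists were chosen with earlier results of these data known. Alternatives were other scaling, filters, DESeq2 1.42.0, a replicate block, stricter cells, thinning, and leaving out each library, and others, named as such, were added after seeing the data. Promoter windows came from a RefSeq table by symbol.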

Additional observations from a re-analysis of the deposited data

Results flagged for a closer look

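For several genes every SDHA-KO library lay on one side of both WT libraries without stimulation and on the other side with it. The difference between the states was not tested, because the unstimulated contrast chose the genes. In log2 units, unstimulated and then stimulated, Ly6c1 was -1.06 and 2.34 over all T cells and -1.31 and 2.10 in CD4 cells. Klrd1 was -1.32 and 1.04 over all T cells, -1.60 and 1.97 in CD4, and -0.71 and 1.22 in CD8 cells. Tent5a was -1.20 and 0.78 over all T cells, -1.23 and 0.75 in CD4, and -0.81 and 0.78 in CD8 cells. Setbp1 and Gm42047 went the other way, Setbp1 at 1.12 and -0.74 over all T cells and 2.13 and -0.16 in CD8 cells, and Gm42047 at 1.54 and -0.08 over all T cells and 1.50 and -0.53 in CD8 cells. The stimulated CD8 value of Setbp1 and the stimulated value of Gm42047 over all T cells did not pass the threshold.

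Sdha itself was lowered less in stimulated CD8 than in CD4 cells, as given above. The SDHA-KO effect in stimulated cells differed between CD8 and CD4 cells by a test of the difference for Klrd1 (-0.78, adjusted p = 0.0190, edgeR), Gm42047 (-0.63, adjusted p = 0.000917, edgeR), and Setbp1 (1.13, adjusted p = 0.00125, edgeR). Under the stricter marker rule, which leaves out cells with a Trdc UMI, the values were 0.34 for Klrd1, -0.11 for Gm42047, and 1.52 for Setbp1, and the Klrd1 difference did not pass without WT stimulated replicate 1, at -0.55.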

How the results depend on the processing

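Against 7 members called in stimulated CD8 cells, 4 were called with libraries thinned to the smallest and 3 in cells under the stricter marker rule. Other counts of members called moved by no more than 1.5 times. Leaving out each library gave 5 to 6 over all T cells, 4 to 5 in CD4, 6 to 7 in CD8, 3 to 5 for CD8 against CD4, 2 to 4 for SDHA-KO effects that differed by class, and 28 to 39 over clusters. Of the values for single genes and shares, 1702 kept their direction and side of the threshold or, where there was no test, moved by no more than the spread between replicates. A further 106 without a test moved by more, 21 lost a call, 16 gained one, and 31 turned in sign.

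Thinned to the smallest library, the stimulated log2 difference was 0.55 for Pde2a and -0.01 for Gm42047 in CD4 cells and 0.01 for Gm16083 in CD8 cells. In cells under 10% mitochondrial UMIs it was 0.13 for Gm42047 over all T cells and 0.11 for Setbp1 in CD8 cells, and stimulated against unstimulated Ly6c1 was -0.69 in WT CD8 cells. Under the stricter marker rule, stimulated Dapl1 was 0.43 in CD8 cells, unstimulated Setbp1 was -0.06 in CD4 cells, Tent5a in CD8 against CD4 cells was -0.12, Klrd1 in stimulated against unstimulated SDHA-KO CD4 cells was -0.70, and the class difference of the SDHA-KO effect was 1.11 for Dapl1, -1.46 for Ly6c1, 0.34 for Klrd1, and -0.31 for Gm16083. Without composition normalization Dapl1 was 0.10 in stimulated against unstimulated SDHA-KO CD4 cells, while the median of all genes there moved from 0.03 to 0.26. With WT subset weights unstimulated Ly6c1 in CD8 cells was -0.75. In percentage points of CD8 cells with a UMI, the stricter rule gave -0.190 for unstimulated Ly6c1 and -2.50 for stimulated Tent5a, and thinned cells gave -2.80 for Setbp1, -5.50 for Gm42047, and 0.183 for Gm16083 after stimulation. At rest the stricter CD4 rule, which needs a Cd4 UMI, kept 521 of 933 and 540 of 951 WT cells. In SDHA-KO it kept 916 of 1116 and 1042 of 1315. The causes of the changes listed here were not tested.

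Leaving out a library turned the class difference of the SDHA-KO effect for Dapl1 (-0.50 to 0.15), Ly6c1 (-0.23 to 0.26), and Gm16083 (-0.07 to 0.37), unstimulated Ly6c1 in CD8 cells (-6.64 to 1.04), Dapl1 (-0.47 to 0.19) and Klrd1 (-0.17 to 1.23) in stimulated against unstimulated SDHA-KO CD4 cells, and Ly6c1 in stimulated against unstimulated WT CD8 cells (-0.25 to 0.53). DESeq2 called 0 poly(A) polymerases lower in stimulated CD4 cells against 3, 4 NK receptor genes higher against 6, 2 SETBP1 partners and PP2A genes and 2 genes of cAMP production and response higher against 4 each, and 1 phosphodiesterase lower against 3, and in CD8 cells 5 NK receptor genes against 8 and 4 SETBP1 partners and PP2A genes against 7.

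The replicate numbers did not pair the libraries, since deviations of same-numbered libraries correlated from -0.08 to 0.10. With a replicate block the members called stayed at 6 over all T cells, 4 in CD4, and 7 in CD8 cells, while the genes called over all T cells went from 267 to 199 unstimulated and from 7197 to 6905 stimulated. Depth limits Gm30948 after stimulation and Ly6c1 in unstimulated CD8 cells, each at a few UMIs per library. Low counts also limit stimulated Gm16083, at 8 to 35 UMIs per class and library, and Ly6c1 in stimulated CD8 cells, at 20 to 78.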
